A study of Rattus norvegicus with 33 samples.

Results

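The nicotinic acetylcholine receptor of skeletal muscle is built from subunits encoded by Chrna1, Chrnb1, Chrnd, Chrne and Chrng, and the mRNA levels of these 5 genes in rat soleus are described here. They are the genes whose own symbol names a muscle receptor subunit, 5 of the 14506 genes that the arrays measured under a single symbol, and each was read from 1 row of the table over 33 arrays. All rats were adult female Wistar animals, with 1 array per animal and 3 animals in each of 11 groups. In the first experiment, Sham-SCI rats had a laminectomy only, with no tenotomy and no implantation surgery, while SCI rats had a complete transection of the spinal cord between the 9th and 10th thoracic vertebrae and later had the gastrocnemius insertion cut, without receiving stimulators. SCI-ES rats had the same transection and tenotomy and carried a stimulator that evoked near-isometric contraction of soleus, with daily bouts that began 16 weeks after the transection and ran over 1, 3 or 7 days. In the second experiment, intact rats had the distal insertion of the gastrocnemius cut to overload soleus (GA) or the same surgery without the cut (Sham-GA), and soleus was taken 1, 3 or 7 days later. Transected soleus keeps its motor nerve, so SCI here is paralysis without denervation, and the stimulated leg of SCI-ES rats also lacks the pull of gastrocnemius. Comparisons with Sham-SCI therefore hold transection, tenotomy and the later surgery together, and these cannot be told apart. By the methods, SCI animals were taken at a fixed time after their later surgery, about that of SCI-ES 7 days. The 1-day and 3-day ES groups were taken sooner after it, and only SCI-ES animals carried a stimulator. Comparisons of ES groups with SCI or with each other therefore also hold the implant or this time. These cannot be told apart from stimulation.

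The receptor is a pentamer of ligand-gated cation channel subunits that depolarizes the fiber when acetylcholine is released from the motor nerve. The adult form combines α, β, δ and ε subunits, and the embryonic form, which returns after denervation, carries γ in place of ε. In innervated fibers the subunit genes are transcribed mainly by nuclei beneath the endplate, under signals such as agrin and neuregulin acting through N-box elements, while electrical activity represses them along the rest of the fiber through E-box elements bound by myogenin and related factors. Loss of activity is known to lift this repression.

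Letters that match these elements were searched for in the bases that precede the start sites of the genes. The sequences are shown because the genes are discussed below beside factors known to bind such elements. They come from the RefSeq table of the rat build GRCr8, where 5 of 5 genes matched by symbol. Each run holds the 200 bases before the annotated start, 5′ to 3′ on the strand of the gene, with E-boxes (CANNTG) and N-boxes (CCGGAA, or TTCCGG on the other strand) in capitals. The Chrna1 run lies at chr3:78877354-78877553 on the minus strand, Chrnd at chr9:95310116-95310315 and Chrng at chr9:95325784-95325983 on the plus strand, and Chrne at chr10:55834155-55834354 on the minus strand. For Chrnb1 the annotated span begins upstream of the start that the table uses, so its run is not shown, and the match nearest to that start lies within the gene. The start that the table uses for Chrne lies within the span that the annotation gives to the gene.
Chrna1: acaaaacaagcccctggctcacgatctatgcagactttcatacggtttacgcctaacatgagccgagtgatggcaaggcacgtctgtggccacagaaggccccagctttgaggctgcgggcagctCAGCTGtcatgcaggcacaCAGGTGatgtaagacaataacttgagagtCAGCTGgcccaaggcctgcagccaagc
Chrnd: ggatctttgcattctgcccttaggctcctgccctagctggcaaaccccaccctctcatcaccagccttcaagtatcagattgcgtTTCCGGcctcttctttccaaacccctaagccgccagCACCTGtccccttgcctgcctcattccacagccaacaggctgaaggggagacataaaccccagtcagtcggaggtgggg
Chrng: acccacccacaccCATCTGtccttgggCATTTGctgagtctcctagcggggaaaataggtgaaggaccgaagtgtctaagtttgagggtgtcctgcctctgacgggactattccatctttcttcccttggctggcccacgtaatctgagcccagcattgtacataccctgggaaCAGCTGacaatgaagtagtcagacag
Chrne: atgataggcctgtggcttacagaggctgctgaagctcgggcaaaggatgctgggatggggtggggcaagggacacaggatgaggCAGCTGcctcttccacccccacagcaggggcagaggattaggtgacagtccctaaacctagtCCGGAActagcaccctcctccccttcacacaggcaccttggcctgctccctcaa

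Within 250 bases before the start, on both strands, Chrna1, Chrnb1 and Chrng held 3 E-boxes each, and Chrnd and Chrne held 1 each. An E-box stood in 65.5% of the 33469 promoters of the table. Its form CAGCTG, which is also counted as an E-box, occurred in Chrna1, Chrnb1, Chrne and Chrng and in 12% of all promoters, and in Chrna1 it began 75 and 27 bases before the start. An N-box was found in Chrnd, 115 bases before the start, and in Chrne, 54 bases before it, against 12.6% of all promoters. Chrnd and Chrng lie next to each other on chromosome 9 with 0 annotated genes between them. These matches are descriptions of the letters in the window.

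Values are log2 expression on a scale shared by all arrays, on which 1 unit is a doubling. They can be compared between samples for 1 gene but not between genes. The arrays had medians from 6.45 to 6.54, and arrays of the same group correlated at 0.964 to 0.994 over all genes. Of the listed skeletal muscle markers 12 of 12 were measured, and Acta1, the 1 whose level is given here, had group means of 13.98 to 14.14. That is near the highest value on any array, 14.26, so Acta1 can show little difference. The mean log2 deviation of the 12 markers varied between arrays of a group. It ran from -0.45 to 0.46 in Sham-SCI, from -0.11 to 0.08 in SCI and from -0.63 to 0.39 in GA 1 day. The part of fiber content in the values below was not tested. Calls of change required limma's adjusted p, computed over all genes tested, to be under 0.05 and the change to reach 1.5 fold.

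**Figure D1:**
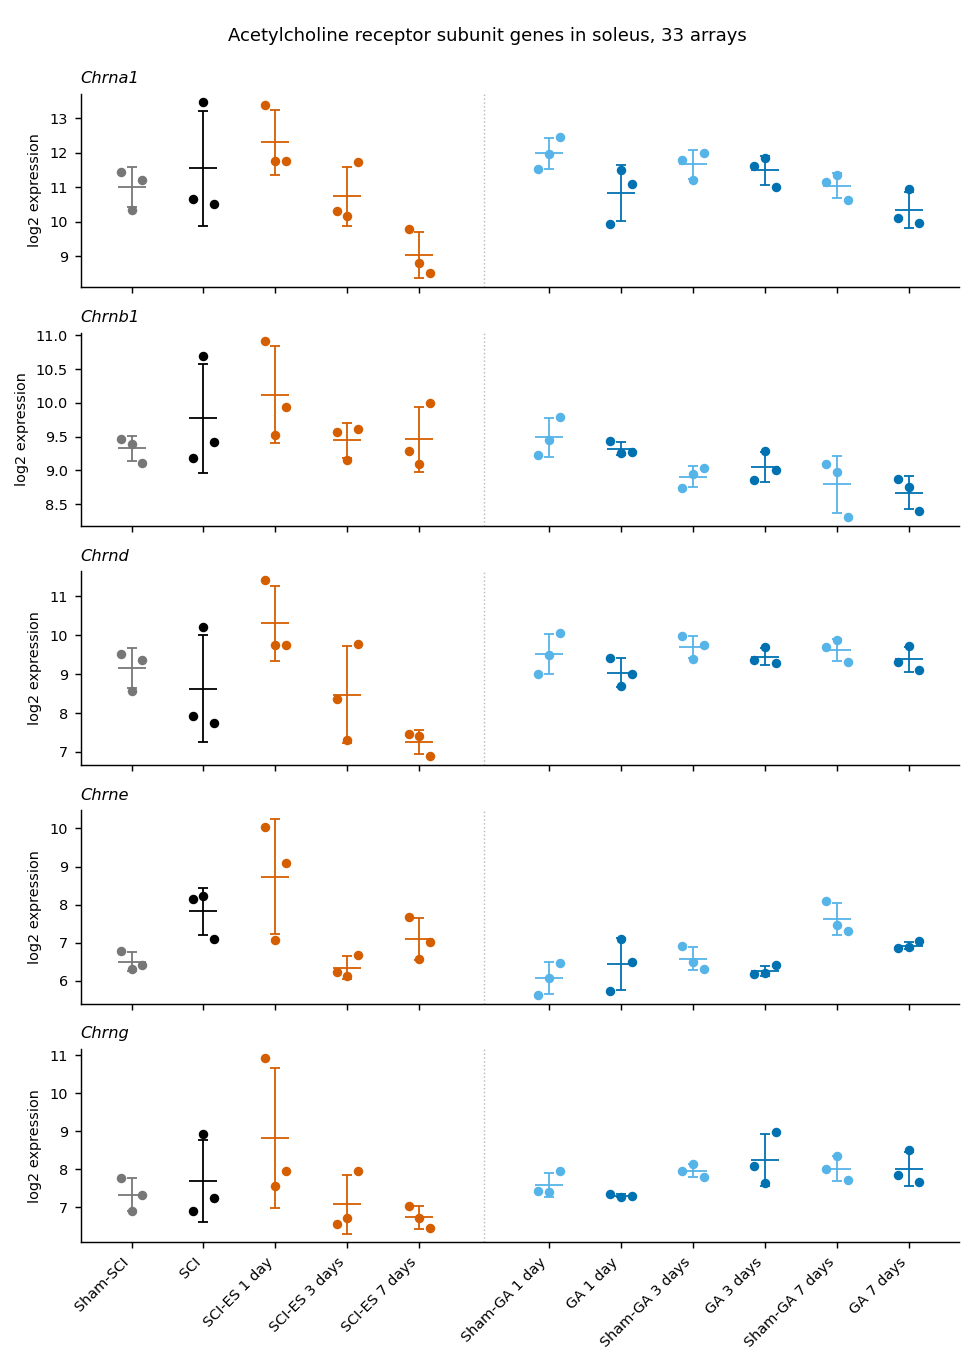
Log2 expression of the 5 subunit genes by group (x axis), with 1 point per animal in the order of replicates 1, 2 and 3, a bar at the group mean and whiskers of 1 SD (n = 3). SCI replicate 2 and SCI-ES 1 day replicate 1 lie above the other arrays of their groups in all 5 panels, and Chrna1 and Chrnd are lowest in SCI-ES 7 days.

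The first comparison asked how receptor expression stood in chronically paralyzed soleus. Chrne, the ε subunit of the adult receptor, was the 1 subunit whose SCI and Sham-SCI arrays did not overlap, and none of the 5 genes was called changed. Chrne read 6.79, 6.31 and 6.41 in Sham-SCI replicates 1, 2 and 3 and 8.14, 8.21 and 7.11 in SCI. The difference was 1.32 ± 0.563 (SE) on the log2 scale, 2.49-fold, with an adjusted p of 0.305, and groups did not overlap for 22.3% of all genes.

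The other subunits gave wide SCI groups. Chrna1, the α subunit that binds acetylcholine, read 11.45, 10.35 and 11.21 in Sham-SCI and 10.66, 13.46 and 10.53 in SCI. Chrnb1, whose β subunit links the receptor to the scaffold protein rapsyn, read 9.46, 9.40 and 9.11 in Sham-SCI and 9.19, 10.70 and 9.43 in SCI. Chrnd, the δ subunit present in both receptor forms, read 9.52, 8.56 and 9.37 in Sham-SCI and 7.93, 10.20 and 7.74 in SCI. In each of these genes SCI replicates 1 and 3 lay close together and replicate 2 stood far above them. Chrng, the embryonic γ subunit, read 7.77, 6.90 and 7.31 in Sham-SCI and 6.91, 8.92 and 7.23 in SCI, with the same animal highest.

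Log2 changes from Sham-SCI to SCI were 0.55 for Chrna1, 0.45 for Chrnb1, 0.36 for Chrng and -0.53 for Chrnd, with adjusted p values from 0.650 to 0.873. Of the 5 genes 0 were changed, against 0.401% of all 14456 genes tested, and 1 of 5 (Chrne) had an unadjusted p under 0.05, against 14.6% of all genes. SCI replicate 2 set the sign for 3 of these genes. Without it the changes were -0.41 for Chrna1, -0.02 for Chrnb1 and -0.26 for Chrng, and Chrne stood at 1.12 without both SCI replicate 2 and SCI-ES 1 day replicate 1, a setting chosen after seeing the data. Fibroblast markers moved with this comparison, with a mean log2 deviation of -1.45 to -0.93 over 7 of 7 genes in Sham-SCI and -0.02 to 0.65 in SCI, and satellite cell and myoblast markers (6 of 8 measured) lay at -0.59 to -0.36 in Sham-SCI and -0.05 to 0.95 in SCI, also without overlap. Macrophage markers had higher means in 8 of 8 genes, by a median of 0.64, but overlapped by array, from -1.49 to 0.47 in Sham-SCI and from -0.13 to 0.48 in SCI. The part of these cells in the Chrne difference was not tested. Of the satellite cell list, Pax7 and Mymx were not measured, and Myf5 and Myod1 also stand in the list of receptor gene regulators below. In whole muscle, fewer cells of a type and less RNA per cell cannot be told apart.

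SCI-ES 1 day was compared with SCI to ask how these genes stood after the first bout of contraction. The comparison also holds the implant and a shorter time since tenotomy. All 5 subunits had higher means in SCI-ES 1 day than in SCI, with a median log2 difference of 0.91 against -0.00 for all genes, and none passed the test. Chrnd came nearest. It read 11.40, 9.75 and 9.74 in SCI-ES 1 day against 7.93, 10.20 and 7.74 in SCI, a difference of 1.68 ± 0.688 (3.2-fold, 95% interval 0.19 to 3.16, adjusted p = 0.684). SCI-ES 1 day replicates 2 and 3 lay below SCI replicate 2, so the groups overlapped.

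Chrna1 read 13.39, 11.76 and 11.78 after 1 day of ES, 0.76 above SCI. Chrng read 10.92, 7.56 and 7.94, and its mean was 1.12 above SCI, carried by replicate 1. Chrne read 10.04, 7.08 and 9.08, a difference of 0.91, with replicate 2 just below the lowest SCI array. Chrnb1 read 10.91, 9.53 and 9.94, a difference of 0.35. Adjusted p values of these 4 genes ran from 0.759 to 0.886. The sizes rested on single arrays: without SCI-ES 1 day replicate 1 the differences were 0.22 for Chrna1, 0.06 for Chrng, 0.26 for Chrne, -0.04 for Chrnb1 and 1.12 for Chrnd, and without SCI replicate 2 they were 1.72, 1.74, 1.11, 0.82 and 2.47. Without SCI-ES 1 day replicate 2 Chrne was 1.74 and Chrng 1.74 above SCI. With limma 0 of 14456 genes were changed in this comparison, 0%, while 7.28% had an unadjusted p under 0.05, as had 1 of the 5 subunits, Chrnd. The count of changed subunits stayed at 0 in every alternative setting. The paper itself counts Chrnd among the genes raised at 1 day of ES. It also reports neuromuscular junction genes as higher at day 1 and lower by day 7, plotted relative to Sham-SCI. Its analysis of variance names no adjustment over genes, whereas every setting here was adjusted.

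Sham-SCI and SCI arrays serve in several of these comparisons, so their values are given side by side. Against Sham-SCI, the 1-day animals were higher in the means of all 5 subunits. Chrne differed by 2.23 ± 0.563 (4.69-fold, adjusted p = 0.131), and 4 of 5 genes (all but Chrng) had groups that did not overlap, against 16.9% of all genes. Without SCI-ES 1 day replicate 1 the differences were 1.58 for Chrne, 0.76 for Chrna1, 0.59 for Chrnd, 0.42 for Chrng and 0.41 for Chrnb1. Called genes made up 0.208% of those tested and 0 of the 5 subunits. Chrne was called in 1 fit of all 33 arrays (adjusted p = 0.0189) and when SCI-ES 1 day replicate 2, the low array, was left out (change 3.06, adjusted p = 0.00284). The fit of 33 takes in the GA arrays, where the SD of Chrne within groups was 0.40, against 0.79 in the 15 arrays.

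At the later days of ES Chrna1 and Chrnd had their lowest levels. Chrna1 read 10.31, 10.17 and 11.72 after 3 days and 9.78, 8.79 and 8.52 after 7 days. All 3 animals of the 7-day group lay below every other array of the first experiment. Chrnd read 8.36, 7.30 and 9.77 after 3 days and 7.47, 7.41 and 6.90 after 7 days. The 7-day animals lay below all Sham-SCI, SCI and SCI-ES 1 day arrays for Chrnd, and overlapped the 3-day group.

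Relative to SCI, Chrna1 differed by -2.52 ± 0.720 at 7 days, 5.73-fold lower, with a 95% interval of -4.07 to -0.97. It ranked 25th of 14456 genes by p (unadjusted p = 0.00378), yet its adjusted p was 1.00, since the comparison held few low p values: 2.84% of all genes and 1 of 5 subunits were under 0.05. Chrnd differed by -1.36 ± 0.688 (adjusted p = 1.00). For these 2 genes the 7-day and SCI groups did not overlap, against 7.57% of all genes. Log2 differences of Chrng, Chrne and Chrnb1 were -0.96, -0.72 and -0.31. Without SCI replicate 2 the differences were smaller, -1.56 for Chrna1, -0.57 for Chrnd, -0.34 for Chrng and -0.53 for Chrne, and that of Chrnb1 was 0.15. No gene was changed at 3 or 7 days against SCI, 0% in both comparisons, in limma.

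Chrne followed another course. It read 6.24, 6.11 and 6.68 after 3 days and 7.69, 6.57 and 7.02 after 7 days, so its lowest group was the 3-day one. All 3-day arrays lay below all SCI arrays, a difference of -1.48 ± 0.563 (2.78-fold lower, adjusted p = 1.00), where 9.12% of all genes did not overlap and 3.07% had an unadjusted p under 0.05, as did 1 of 5 subunits. Chrng read 6.54, 6.72 and 7.95 after 3 days and 7.02, 6.73 and 6.44 after 7 days. Chrnb1 read 9.57, 9.15 and 9.62 after 3 days and 9.28, 9.09 and 10.00 after 7 days, and its groups overlapped those of SCI and Sham-SCI.

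Between 1 and 7 days of ES, within the stimulated animals, Chrna1, Chrnd and Chrng showed their largest differences of the first experiment. These groups also differ in time since tenotomy. Chrna1 was lower at 7 days by -3.28 ± 0.720 (9.69-fold), ranking 17th of all genes by p, and Chrnd by -3.04 ± 0.688 (8.21-fold), ranking 32nd. Both had an adjusted p of 0.244. Chrng differed by -2.08, Chrne by -1.64 and Chrnb1 by -0.67, with adjusted p values of 0.323, 0.314 and 0.526. An unadjusted p under 0.05 was reached by 4 of 5 subunits (all but Chrnb1), against 12.1% of all genes, and 3 of 5 (Chrna1, Chrnd, Chrng) had groups that did not overlap, against 15.3%. The called share was 0% with limma on the 15 arrays. In 1 fit of all 33 arrays, where the spread is estimated with the GA animals included, Chrna1 (adjusted p = 0.0252) and Chrnd (0.0227) were among 13 genes called. In the GA arrays the SD within groups was 0.52 for Chrna1 and 0.35 for Chrnd, against 1.01 and 0.97 in the 15 arrays. The pooled spread of these genes is therefore smaller than that of the 15 arrays. Without SCI-ES 1 day replicate 1 the differences were -2.74 for Chrna1, -2.48 for Chrnd, -1.02 for Chrng, -0.99 for Chrne and -0.27 for Chrnb1. Satellite cell and myoblast markers moved with this comparison without overlap, from 0.24 to 0.94 at 1 day and from -0.33 to 0.19 at 7 days. Among them Myf5 and Myod1 are also receptor gene regulators, and Pax7 was not measured. The part of satellite cells in this comparison was not tested.

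From 1 to 3 days Chrne showed the largest log2 difference of the 5 genes, -2.39 ± 0.563 (5.24-fold lower, adjusted p = 0.206), and Chrna1 and Chrne did not overlap, against 16.6% of all genes. No gene was called in limma (0%), while 13.1% of all genes and 4 of 5 subunits had an unadjusted p under 0.05. Without SCI-ES 1 day replicate 2 Chrne was called between 1 and 3 days (-3.22, adjusted p = 0.00424) and between 1 and 7 days (-2.47, adjusted p = 0.0205). Without replicate 1 the 1 to 3 day differences were -1.74 for Chrne, -1.03 for Chrna1 and -0.68 for Chrng. Endothelial markers (5 of 6 measured) did not overlap between these days, from -0.86 to 0.02 at 1 day and from 0.32 to 0.71 at 3 days, and their part was not tested. From 3 to 7 days Chrna1 differed by -1.70, with no overlap against 10.6% of all genes, and the other 4 by -1.21 to 0.75, all with an adjusted p of 1.00; 0% of genes were called, 3.71% had an unadjusted p under 0.05, and so did 1 of 5 subunits (Chrna1).

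Compared with the laminectomy controls, 7 days of ES left Chrna1 at -1.97 ± 0.720 (3.92-fold lower) and Chrnd at -1.89 ± 0.688 (3.71-fold lower), each with an adjusted p of 0.217 and with groups that did not overlap, against 20.5% of all genes. Called genes made up 0.699% and included no subunit; 2 of 5 subunits against 14.8% of genes had an unadjusted p under 0.05. Fitted on the arrays of these groups alone Chrnd was called (adjusted p = 0.0378). Chrng, Chrnb1 and Chrne differed by -0.60, 0.13 and 0.59. After 3 days of ES the 5 genes lay within -0.68 to 0.12 of Sham-SCI, with 0 called against 0.38% of genes, 0 of 5 against 16.2% with an unadjusted p under 0.05, and 0 of 5 against 23.8% with groups that did not overlap.

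**Figure D2:**
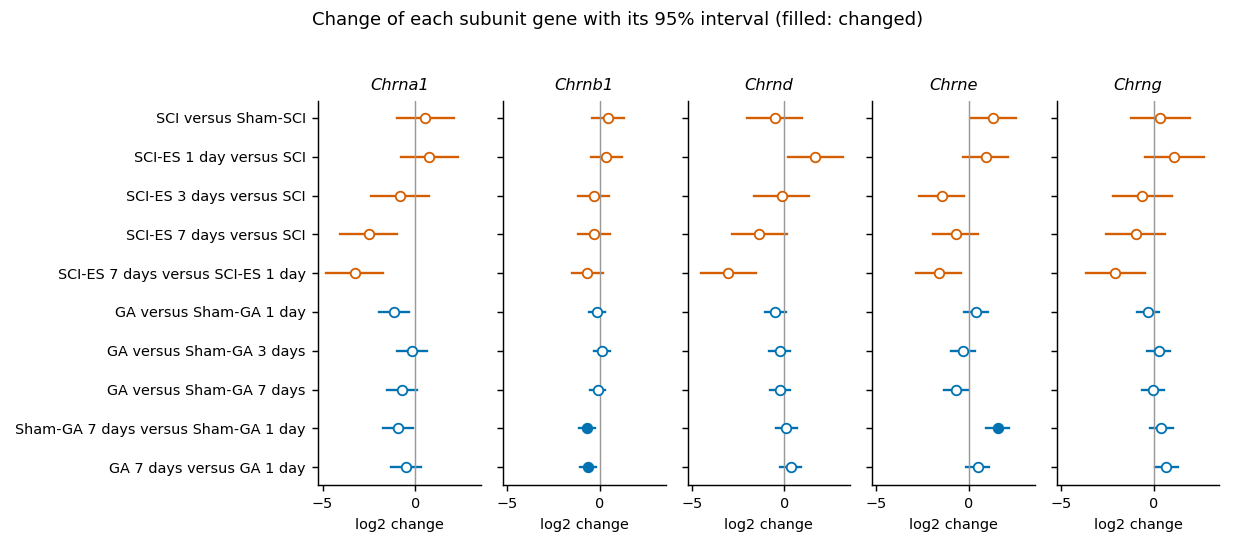
Log2 change (x axis) of each subunit gene in 10 comparisons (y axis), with its 95% interval from limma, in orange for SCI and ES and in blue for GA. Filled points are the calls, which are Chrnb1 and Chrne from 1 to 7 days after sham ablation and Chrnb1 from 1 to 7 days after GA, and the intervals of the ES comparisons are wider than those of the GA comparisons.

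The order of group means in the first experiment was SCI-ES 1 day highest for all 5 genes. For Chrna1 it was followed by SCI (11.55), Sham-SCI, SCI-ES 3 days (10.74) and SCI-ES 7 days (9.03), and among these neighbours the step from 3 to 7 days alone exceeded the larger SD of the pair. For Chrnd the order was SCI-ES 1 day (10.30), Sham-SCI (9.15), SCI (8.62), SCI-ES 3 days (8.47) and SCI-ES 7 days (7.26), with the first step alone beyond the larger SD. For Chrne the means ran from 8.73 in SCI-ES 1 day through SCI (7.82), SCI-ES 7 days (7.09) and Sham-SCI (6.5) to 6.34 in SCI-ES 3 days, with the steps from SCI to SCI-ES 7 days and from there to Sham-SCI beyond the larger SD. No neighbouring groups of Chrnb1 (10.12 to 9.32) or Chrng (8.81 to 6.73) differed by more than that.

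Much of the variation lay between animals of the same group. The SD within groups over the 15 arrays was 1.01 for Chrna1, 0.55 for Chrnb1, 0.97 for Chrnd, 0.79 for Chrne and 1.04 for Chrng, against a median of 0.18 over all genes, and the percentiles were 96 for Chrnb1 and 98.9 to 99.7 for the other 4. In the 18 arrays of the GA experiment the same SDs were 0.52, 0.26, 0.35, 0.40 and 0.38, smaller by ratios of 1.95 to 2.8, where the median gene had a ratio of 0.93. These ratios are a description, and no test was made of them.

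Arrays behind that spread can be named. SCI replicate 2 exceeded the mean of the other SCI arrays by 2.87 for Chrna1, 1.39 for Chrnb1, 2.37 for Chrnd, 0.59 for Chrne and 1.85 for Chrng. Only 0.0551% of all genes deviated more than Chrna1 on that array, and 0.138% more than Chrnd. SCI-ES 1 day replicate 1 exceeded its group by 1.62, 1.18, 1.66, 1.96 and 3.17 in the same order of genes, and 0.0345% of genes deviated more than Chrng. Other genes known to rise in denervated muscle, such as Myog and Gadd45a (12 of 16 listed were measured), were also highest on these arrays, with a mean log2 deviation of 2.03 on SCI-ES 1 day replicate 1 and 1.5 on SCI replicate 2, followed by 0.95 on SCI-ES 1 day replicate 3. Satellite cell and myoblast markers (6 of 8 measured) stood at 0.94 and 0.95 on these arrays and at most at 0.46 on the other 13. Schwann cell markers (6 of 8 measured) were at 0.12 on SCI replicate 2 and -0.07 on SCI-ES 1 day replicate 1. Endothelial markers stood at -0.17 on the former and at -0.86 on the latter, the lowest of the 15 arrays. The part of these cells or of RNA quality, with integrity numbers above 8.0 for all samples per the labels, was not tested.

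**Figure D3:**
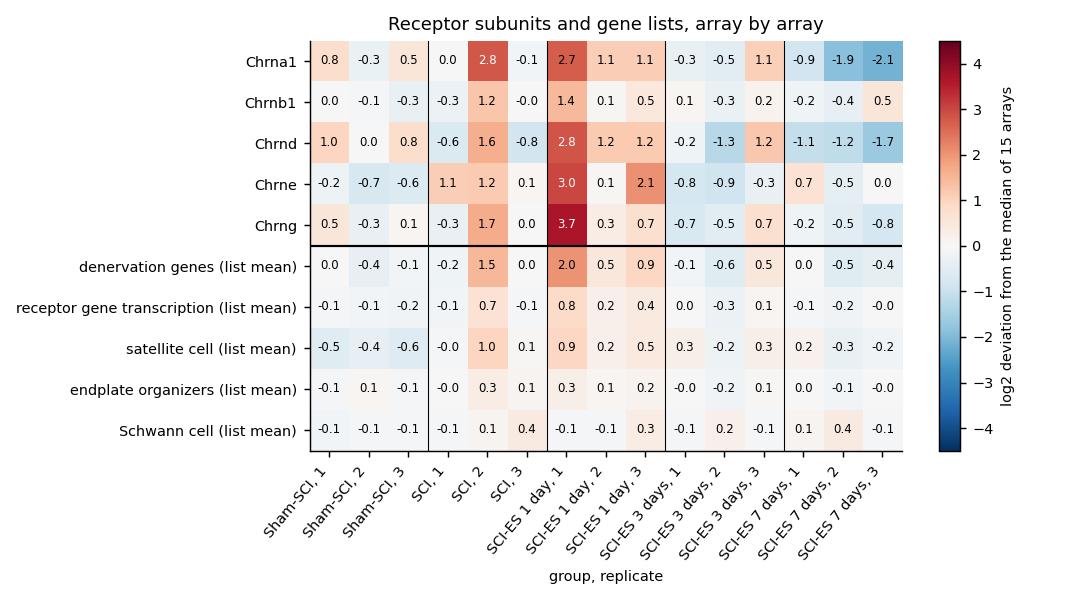
Log2 deviation from the median of the 15 arrays (color) for each subunit gene (rows above the line) and, below it, the mean over the genes of 5 lists, with 1 column per array. SCI replicate 2 and SCI-ES 1 day replicate 1 are red for all subunit genes and for the denervation list, and SCI-ES 7 days is blue for Chrna1 and Chrnd.

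Across these 15 arrays the subunits varied together. Pearson's r between pairs of the 5 genes ran from 0.547 to 0.93 with a median of 0.741, and all 10 pairs were above 0. Chrna1 and Chrnd gave the highest r. With SCI replicate 2 and SCI-ES 1 day replicate 1 left out, pairs among Chrna1, Chrnd and Chrng held at 0.908, 0.857 and 0.856 over 13 arrays, while pairs with Chrnb1 or Chrne dropped to between 0.101 and 0.382. In the 18 GA arrays r ran from -0.447 (Chrnb1 with Chrne) to 0.494, with a median of 0.14. These are descriptions over arrays that share groups, with no test.

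**Figure D4:**
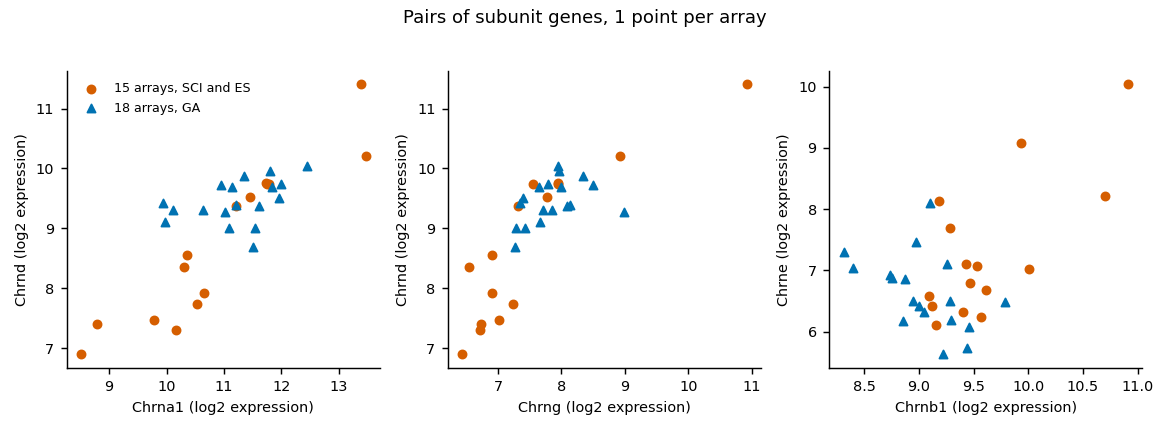
Log2 expression of 3 pairs of subunit genes, with 1 point per array, circles for the 15 arrays of SCI and ES and triangles for the 18 of GA. The circles follow a line for Chrna1 with Chrnd (r = 0.93) and for Chrng with Chrnd (r = 0.863), and the triangles do so less (0.41 and 0.425), while Chrnb1 and Chrne give 0.718 and -0.447.

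Overload after GA was compared with the sham operation at each day to ask how innervated muscle under load regulates the receptor. By limma no subunit was called changed between GA and Sham-GA at any day. Chrna1 was lower in the mean at each of the 3 days. It read 11.54, 11.96 and 12.45 in Sham-GA 1 day and 9.93, 11.50 and 11.09 in GA 1 day, so all ablated animals lay below all sham animals. The difference was -1.14 ± 0.383 (2.21-fold lower, 95% interval -1.96 to -0.33, adjusted p = 0.219). Chrna1 and Chrng had groups that did not overlap at 1 day, 2 of 5 against 16.6% of all genes. Called genes were 0.0554% of 14451, and 1 of 5 subunits (Chrna1) against 13.7% of genes had an unadjusted p under 0.05.

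At 3 days Chrna1 read 11.80, 11.20 and 11.99 in Sham-GA and 11.62, 11.84 and 11.02 in GA, a difference of -0.17 with overlapping groups. At 7 days it read 11.14, 11.35 and 10.64 in Sham-GA and 10.12, 10.95 and 9.97 in GA, a difference of -0.70. Over the 3 days the mean GA effect on Chrna1 was -0.67 ± 0.221 (1.59-fold lower, adjusted p = 0.181) and on Chrnd -0.33 ± 0.150 (adjusted p = 0.25), and the other 3 genes lay within -0.21 to -0.01. With limma 0% of genes were called for the mean effect, while 19.3% of genes and 2 of 5 subunits had an unadjusted p under 0.05. Chrna1 was called without Sham-GA 3 days replicate 2 (-0.75, adjusted p = 0.0483), an array whose fibroblast marker level was 0.28 where the other Sham-GA 3 days arrays stood at -1.60 and -1.15. The part of those cells in this value was not tested.

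Chrne showed its largest difference at the last day. It read 5.63, 6.08 and 6.48 in Sham-GA 1 day and 5.73, 7.10 and 6.5 in GA 1 day, then 6.92, 6.49 and 6.32 in Sham-GA 3 days and 6.17, 6.19 and 6.42 in GA 3 days. At 7 days it read 8.09, 7.47 and 7.30 after sham ablation and 6.85, 6.88 and 7.04 after GA, with every ablated animal below every sham animal. The difference at 7 days was -0.70 ± 0.296 (1.62-fold lower, adjusted p = 0.999), where 11.2% of all genes did not overlap, 0% were called by limma and 2.63% of genes and 1 of 5 subunits (Chrne) had an unadjusted p under 0.05. At 3 days 0% of genes were called, and 16.5% of genes and 0 of 5 subunits had an unadjusted p under 0.05. The change of the GA effect on Chrne from 1 to 7 days was -1.08 ± 0.418 (adjusted p = 0.509), and 8.26% of genes and 1 of 5 subunits had an unadjusted p under 0.05 there, with 0% called.

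Levels of the remaining subunits differed little between GA and sham. Chrnd read 9.01, 9.5 and 10.04 in Sham-GA 1 day and 9.42, 8.68 and 9.00 in GA 1 day, 9.96, 9.39 and 9.74 against 9.37, 9.69 and 9.27 at 3 days, and 9.69, 9.87 and 9.31 against 9.31, 9.72 and 9.10 at 7 days. Its differences ran from -0.48 to -0.25 and its groups overlapped at each day. Chrng read 7.43, 7.40 and 7.95 against 7.35, 7.26 and 7.29 at 1 day, 7.96, 8.13 and 7.78 against 8.09, 7.65 and 8.98 at 3 days, and 8.00, 8.34 and 7.71 against 7.84, 8.49 and 7.66 at 7 days. Its differences were -0.29, 0.28 and -0.02. Chrnb1 read 9.22, 9.45 and 9.79 against 9.44, 9.25 and 9.28 at 1 day, 8.74, 8.95 and 9.04 against 8.85, 9.29 and 9.00 at 3 days, and 9.10, 8.97 and 8.31 against 8.87, 8.75 and 8.39 at 7 days, with differences of -0.16, 0.14 and -0.12.

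The calls among the subunits came in the comparisons between days after surgery. Each day held other animals, whose preoperative weights in the paper differed, and no unoperated group was arrayed. A change with time and a difference between the animals of the days therefore cannot be told apart. After sham ablation Chrne rose from a mean of 6.06 at 1 day to 7.62 at 7 days, a change of 1.56 ± 0.296 (2.94-fold, 95% interval 0.93 to 2.18, adjusted p = 0.00489), and all 7-day arrays lay above all 1-day arrays. This call held in each alternative setting and without each array in turn, though not every setting could put it to the test. Dropping the fold minimum can only add calls, and averaging rows leaves the single row of Chrne as it is. The methods' test does not compare these groups alone. Chrnb1 fell over the same days, from 9.49 to 8.79, by -0.70 ± 0.200 (1.62-fold, adjusted p = 0.0370). Changed genes made up 6.57% of all genes tested (3.46% higher and 3.11% lower), against 2 of 5 subunits, and 28.5% of genes had groups that did not overlap, against 3 of 5 (Chrna1, Chrnb1, Chrne). The Chrnb1 call was lost in 5 alternative fits and without Sham-GA 7 days replicate 3 (-0.46, adjusted p = 0.182), Sham-GA 1 day replicate 3 (-0.55, 0.149) or replicate 2 (-0.71, 0.0736). Chrna1 differed by -0.94 (adjusted p = 0.136), Chrng by 0.43 and Chrnd by 0.11.

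After GA the same interval gave a fall of Chrnb1 from 9.32 to 8.67, by -0.65 ± 0.200 (1.57-fold, adjusted p = 0.0426), with groups that did not overlap. Here 8.6% of genes were changed (5.66% higher and 2.94% lower), against 1 of 5 subunits, and 35.1% did not overlap, against 2 of 5 (Chrnb1, Chrng). An unadjusted p under 0.05 was found for 26.4% of genes and for 2 of 5 subunits. The Chrnb1 call was lost without any 1 of the 3 arrays of GA 7 days (-0.75, -0.69 and -0.52 without replicates 1, 2 and 3) or of GA 1 day (-0.60, -0.69 and -0.68), with adjusted p values from 0.0507 to 0.183. It was also lost without Sham-GA 1 day replicate 2, Sham-GA 3 days replicate 3 or Sham-GA 7 days replicate 2, which enter the spread alone (adjusted p = 0.0528, 0.0526 and 0.0509). Chrng was higher at 7 days by 0.70 ± 0.286 (adjusted p = 0.130), and Chrne by 0.48 (adjusted p = 0.330). From 1 to 3 days after GA Chrng differed by 0.94 ± 0.286 (1.92-fold, adjusted p = 0.0810), with all 3-day arrays above all 1-day arrays, and without GA 3 days replicate 2 it was called (1.23, adjusted p = 0.0285). In that comparison 3.09% of genes and 0 of 5 subunits were changed, 19.8% of genes and 1 of 5 had an unadjusted p under 0.05, and 24.2% of genes did not overlap, against 1 of 5 subunits. From 1 to 3 days after sham ablation 0 of 5 were changed and 0% of genes by limma, Chrnb1 differed by -0.58 (adjusted p = 0.759), and 5.43% of genes and 1 of 5 (Chrnb1) had an unadjusted p under 0.05.

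Markers of other cells moved over the same days. Fibroblast markers (7 of 7 measured) lay between -1.64 and -1.11 in Sham-GA 1 day and between 0.60 and 1.17 in Sham-GA 7 days, and 5 of 7 rose from 1 to 7 days after sham ablation and 5 of 7 after GA, where 3.46% and 5.66% of all genes rose. Macrophage markers rose in 3 of 8 genes after sham ablation and in 4 of 8 after GA, where 1 of 8 fell. Schwann cell markers (6 of 8 measured) lay between -0.14 and -0.05 at 1 day and -0.00 and 0.25 at 7 days after sham ablation, and between -0.10 and -0.01 at 1 day and 0.15 and 0.29 at 7 days after GA. After GA satellite cell and myoblast markers also did not overlap, with -0.56 to -0.09 at 1 day and 0.12 to 0.49 at 7 days, nor did endothelial markers, with -0.27 to -0.01 and 0.15 to 0.51. After sham ablation both of these lists overlapped between the days. The part of these cells in the Chrne and Chrnb1 changes was not tested.

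In the GA experiment group means of Chrna1 ran from 11.98 in Sham-GA 1 day to 10.35 in GA 7 days, and those of Chrnb1 from 9.49 to 8.67 in the same groups. Among neighbours in these orders, the larger SD was exceeded only between GA 3 days and Sham-GA 7 days for Chrna1 and between GA 1 day and GA 3 days for Chrnb1. Chrnd ran from 9.70 in Sham-GA 3 days to 9.03 in GA 1 day with no step beyond the SD. Chrne ran from 7.62 in Sham-GA 7 days through 6.92 in GA 7 days, each set off from the next by more than the SD, to 6.06 in Sham-GA 1 day. Chrng ran from 8.24 in GA 3 days to 7.30 in GA 1 day, with the step from Sham-GA 3 days to Sham-GA 1 day beyond the SD.

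The ES and GA effects were set against each other in a fit of all 33 arrays. That fit pools the spread of both experiments, which for each subunit was wider in the 15 SCI and ES arrays. The ES effects hold the implant and, at 1 and 3 days, a shorter time since tenotomy than in SCI. At 1 day the ES effect exceeded the GA effect for all 5 subunits, by 2.16 ± 0.758 for Chrnd (4.46-fold, adjusted p = 0.205), 1.90 ± 0.847 for Chrna1 (adjusted p = 0.335) and 1.41 ± 0.816 for Chrng (adjusted p = 0.472). None passed the test, against 0.0554% of 14453 genes, and 2 of 5 subunits against 13% of genes had an unadjusted p under 0.05. At 7 days the order was the opposite for Chrna1, -1.82 ± 0.847 (adjusted p = 0.999), and for the other 4 the values ran from -1.12 to -0.03. At 3 days they ran from -1.16 to 0.11, with adjusted p values from 0.541 upward. Without SCI-ES 1 day replicate 1 the 1-day values were 1.36 for Chrna1, 1.60 for Chrnd and 0.35 for Chrng, and without SCI replicate 2 they were 2.86, 2.95 and 2.03. Without SCI replicate 2 the 7-day value of Chrna1 was -0.86, that of Chrnd -0.33 and that of Chrng -0.32.

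The adult and embryonic receptors differ by Chrne and Chrng, so the log2 difference of the pair was followed per array. Only its change between groups can be read. The change in favor of Chrne was 1.13 from 1 to 7 days after sham ablation, 1.09 from 3 to 7 days of ES and 1.19 from Sham-SCI to SCI-ES 7 days. In these 3 of 17 comparisons the groups did not overlap and the two-sided exact permutation p was 0.1, the smallest that 3 against 3 animals can give. From Sham-SCI to SCI it was 0.96 with an exact permutation p of 0.2, and the other 13 changes, from -1.12 to 0.75, had exact p values from 0.2 to 0.9. In the SCI group the difference had an SD of 0.99, in Sham-SCI 0.21.

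Genes that build the endplate were followed beside the subunits. Of 25 listed organizers and scaffold genes 22 were measured, and 0 passed the test in the SCI and ES comparisons. Musk, the agrin receptor kinase, was the highest gene of the list from Sham-SCI to SCI (log2 difference 1.23) and from SCI to SCI-ES 1 day (0.74), and the lowest from 1 to 7 days of ES (-1.57). Colq, the collagen tail of acetylcholinesterase, differed by -1.67 from Sham-SCI to SCI. The median list gene differed by 0.11 there and by 0.02 after 1 day of ES. From 1 to 7 days after GA 3 of 22 rose and 2 fell, where 5.66% of all genes rose and 2.94% fell: the higher ones were Agrn, the organizer released by the nerve (0.80), Cdk5, a kinase of the endplate (0.78), and Lamb2, a synaptic laminin chain (0.76), and the lower ones Erbb3, a neuregulin receptor (-1.62), and Gabpa, which binds N-boxes (-0.62). After sham ablation Agrn (0.61) and Utrn, the endplate homologue of dystrophin (0.61), rose, 2 of 22 against 3.46% of all genes.

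Regulators that tie receptor transcription to activity were measured for 22 of 27 listed genes. None passed the test in the SCI and ES comparisons. The median list gene differed by 0.18 after 1 day of ES and by -0.32 from 1 to 7 days, against 0.02 for all genes, with Gadd45a, a nuclear factor induced in denervation, at 1.64 and -2.33. From 1 to 7 days after sham ablation 4 of 22 fell, against 3.11% of all genes: Gadd45a (-1.69), Myog, which binds E-boxes of the subunit genes (-1.52), Hdac4, a deacetylase that relays denervation to them (-1.28), and Myf6 (-0.75). After GA 4 of 22 fell, against 2.94% of all genes: Myog (-1.86), Gadd45a (-1.30), Runx1 (-1.15) and Jun (-0.84). From Sham-SCI to SCI the highest value was that of Myod1, a myogenic factor that binds E-boxes (1.25).

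Of the 16 listed genes known to rise in denervated muscle 12 were measured, and some also belong to the list of regulators. All 12 had higher means in SCI-ES 1 day than in Sham-SCI, with a median of 1.06 against -0.02 for all genes. All 12 were lower at 7 than at 1 day of ES, with a median of -1.34 against 0.02, and 0 passed the test. The list level was 2.03, 0.51 and 0.95 in SCI-ES 1 day replicates 1, 2 and 3. Replicate 1 was also the highest of its group for all 5 subunits, so the list and the subunits are not separate observations. The ends of the range from 1 to 7 days were Ankrd1, a titin-associated stress protein (-3.99), and Fgfbp1 (-0.08). From 1 to 7 days after GA 2 of 12 rose and 4 fell, against 5.66% and 2.94% of all genes, and after sham ablation 1 rose and 3 fell, against 3.46% and 3.11%. Myh3, embryonic myosin, rose in both (2.48 and 1.93), and Myog and Gadd45a fell in both. The lowest gene after GA, Ankrd1 (-1.89), did not pass the test.

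Genes whose pattern over the 33 arrays was most like each subunit were ranked by Pearson's r after the mean of each experiment was subtracted. Nearest to Chrna1 were Creld1 (0.848), Usp20 (0.801) and Inpp4a (0.783), and nearest to Chrnd were Gtf2h5 (0.834), Creld1 (0.825) and Ppp1r11 (0.819). Chrna1 itself stood first among all genes for Chrnd at 0.836, and Chrnd second for Chrna1. Chrnb1 was nearest to Sync, which encodes the intermediate filament protein syncoilin (0.872), Kcnn3, a calcium-activated potassium channel (0.868), and Fbxo30, a ubiquitin ligase (0.828). Chrng was nearest to Slc51a (0.862), Adra1b, an α1 adrenergic receptor (0.860), and Faah (0.854), and Chrne to Nsg2 (0.770), Map6d1 (0.769) and Sohlh2 (0.753). For Chrnb1 its 3 genes gave 0.808 to 0.903 in the 15 arrays and 0.849 to 0.875 in the 18, whereas for Chrng the range was 0.917 to 0.929 in the 15 and 0.325 to 0.541 in the 18. Chrng stood highest of the 15 arrays on SCI-ES 1 day replicate 1 (10.92) and SCI replicate 2 (8.92). The ranking was not repeated without these arrays, so their part in this contrast was not tested. After group means were removed r was 0.861 for Creld1 with Chrna1 and 0.909 for Slc51a with Chrng, and lower for Inpp4a with Chrna1 (0.608), Ppp1r11 with Chrnd (0.636) and the 3 genes nearest to Chrne (0.673 to 0.707).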

How the data were processed

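RNA from each soleus was read on 1 Affymetrix rat array. The deposited values are log2 expression levels of transcript clusters. The authors made them by RMA in the oligo package (baseline subtraction, then quantile normalization, then median polish), so the background step cannot be repeated here. The days given are those of the sample labels (1, 3 and 7), although the series text has 1, 2 and 7 for ES. That text also speaks of bilateral ablation, while the methods describe the left hindlimb. Of 29214 rows 15310 carried exactly 1 gene symbol in the platform annotation, 323 carried several and 13581 none, and only rows of the first kind were used. Among several rows of 1 symbol (527 genes) the brightest was taken. Each subunit gene had a single row.

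Expression was modelled with limma 3.58.1 in R 4.3.3 as 1 mean per group, in 2 fits for the 15 SCI and ES arrays and the 18 GA arrays, and in 1 fit of 33 for ES minus GA. Genes with a mean under 3 were dropped. P values were adjusted by the Benjamini-Hochberg method across every gene in the fit, intervals are 95% intervals, and values after ± are standard errors unless named SD. The small number of animals per group, 3, limits the precision. A list level is the mean deviation of its genes from their medians over the arrays of that experiment. The fit was tested on simulated data. Other settings were no intensity filter or one at a mean of 6, a filter on variance, quantile normalization applied again, median centring, no fold minimum, separate fits of the groups compared, a single fit of 33 arrays, a trended robust prior, averaging the rows of a gene, an analysis of variance after the methods, and the replicate number as block. The analysis of variance tests a whole factor across an experiment, so comparisons on the same factor share 1 p. It was adjusted over all genes without a variance filter, whereas the methods filter on variance and name no adjustment. Arrays were also omitted one at a time, which leaves groups of 2 that borrow the common variance. Omitting 2 arrays together was added after seeing the data.

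The subunit genes and the lists were chosen with earlier results of these data known. Named genes are the 5 subunits, from each list up to 4 called members and the ends of its range, and the 3 genes most like each subunit. Arrays were singled out after their values were seen. Same-numbered replicates did not deviate together (median r -0.06, range -0.72 to 0.67), so the numbers were not taken as pairs. No pair of arrays shared more than 67 identical values. Promoters were searched and figures drawn in Python 3.11.15 using numpy 2.4.6, pandas 2.3.3 and, for the plots, matplotlib 3.10.9. The PCR measurements of the study were not used here.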

Additional observations from a re-analysis of the deposited data

How the results depend on the processing

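Calls and log2 changes within each experiment were recomputed under 13 other settings, ES minus GA under 11, and the unequal change of Chrne and Chrng with repeated quantile normalization only, and all of them with single arrays omitted. The rise of Chrne from 1 to 7 days after sham ablation was called in every fit made of it. In that comparison the count of changed subunits was 1 instead of 2 after repeated quantile normalization, in a fit of the groups alone, in 1 fit of 33 arrays, with the replicate block and with the methods' test, in each case through loss of Chrnb1 (adjusted p = 0.0635, 0.151, 0.163, 0.0548 and 0.0710). From 1 to 7 days after GA the count was 2 in a fit of the groups alone, with Chrng added (adjusted p = 0.0466), and 0 in 1 fit of 33 arrays (Chrnb1 adjusted p = 0.181), with the replicate block (0.0615) and with the methods' test (0.0710). The 0.0710 is a single value that serves both comparisons. It comes from a test of the days and their interaction with surgery over all arrays of the GA experiment, not from a test of 1 day against 7 days. The replicate numbers did not pair the animals, and the block changed no other call. The count was 1 in a fit of the groups alone for SCI-ES 7 days versus Sham-SCI, and in 1 fit of 33 arrays it was 2 for SCI-ES 7 days versus SCI-ES 1 day and 1 for SCI-ES 1 day versus Sham-SCI. That fit called 13 genes in all for SCI-ES 7 days versus SCI-ES 1 day, where the fit of 15 arrays called 0, and 107 against 30 for SCI-ES 1 day versus Sham-SCI. Fits of the groups alone and of 33 arrays differ in the samples that set the spread. For each subunit the SD within groups was smaller in the GA arrays than in the SCI and ES arrays. The cause of the other shifts was not tested. Repeated quantile normalization turned the sign of 3 values near 0, Chrnb1 from 3 to 7 days of ES (-0.0020), Chrnb1 in the change of the GA effect from 1 to 7 days (-0.036) and Chrne in ES minus GA at 7 days (0.0038). Leaving out SCI replicate 2 and SCI-ES 1 day replicate 1 together, a setting chosen after seeing the data, turned SCI versus Sham-SCI to -0.41 for Chrna1, -0.018 for Chrnb1 and -0.26 for Chrng, SCI-ES 3 days versus SCI to 0.14 for Chrna1, 0.14 for Chrnb1 and 0.64 for Chrnd, and SCI-ES 7 days versus SCI to 0.15 for Chrnb1. It also turned ES minus GA to 0.32 for Chrna1 and 9.3e-05 for Chrnb1 at 3 days and to 0.27 for Chrnb1 and 0.17 for Chrne at 7 days. With single arrays left out the count of changed subunits ran from 0 to 1 for SCI-ES 3 days versus SCI-ES 1 day, 0 to 1 for SCI-ES 7 days versus SCI-ES 1 day, 0 to 1 for SCI-ES 1 day versus Sham-SCI, 0 to 1 for mean GA effect over 1, 3 and 7 days, 0 to 1 for GA 3 days versus GA 1 day, 0 to 1 for GA 7 days versus GA 1 day and 1 to 2 for Sham-GA 7 days versus Sham-GA 1 day. Log2 changes that turned sign when 1 array was left out were all without a call, and their ranges were as follows. For SCI versus Sham-SCI they were -0.41 to 1.06 for Chrna1, -0.018 to 0.74 for Chrnb1 and -0.26 to 0.74 for Chrng. In SCI-ES 1 day versus SCI the values ran from -0.040 to 0.82 for Chrnb1. For SCI-ES 3 days versus SCI they were -1.33 to 0.14 for Chrna1, -0.62 to 0.14 for Chrnb1 and -0.79 to 0.64 for Chrnd. In SCI-ES 7 days versus SCI the values ran from -0.61 to 0.15 for Chrnb1. For SCI-ES 7 days versus SCI-ES 3 days they were -0.26 to 0.20 for Chrnb1 and -0.60 to 0.10 for Chrng. In SCI-ES 3 days versus Sham-SCI the values ran from -0.76 to 0.014 for Chrna1 and -0.70 to 0.0026 for Chrng. For SCI-ES 7 days versus Sham-SCI they were -0.14 to 0.32 for Chrnb1. In ES effect minus GA effect, 1 day the values ran from -0.12 to 1.36 for Chrne. For ES effect minus GA effect, 3 days they were -1.15 to 0.32 for Chrna1, -0.76 to 9.3e-05 for Chrnb1 and -0.54 to 0.90 for Chrnd. In ES effect minus GA effect, 7 days the values ran from -0.48 to 0.27 for Chrnb1 and -0.38 to 0.23 for Chrne. For GA versus Sham-GA 3 days they were -0.40 to 0.062 for Chrna1 and -0.092 to 0.58 for Chrng. In GA versus Sham-GA 7 days the values ran from -0.36 to 0.030 for Chrnb1 and -0.26 to 0.15 for Chrng. For mean GA effect over 1, 3 and 7 days they were -0.13 to 0.0012 for Chrnb1 and -0.13 to 0.090 for Chrng. In GA 3 days versus GA 1 day the values ran from -0.54 to 0.14 for Chrne. For Sham-GA 3 days versus Sham-GA 1 day they were -0.073 to 0.44 for Chrnd. In Sham-GA 7 days versus Sham-GA 1 day the values ran from -0.15 to 0.37 for Chrnd. For GA effect 3 days minus GA effect 1 day they were -0.038 to 0.48 for Chrnd. In GA effect 7 days minus GA effect 1 day the values ran from -0.010 to 0.77 for Chrna1, -0.20 to 0.19 for Chrnb1 and -0.027 to 0.49 for Chrnd. The unequal change of Chrne and Chrng ran from -0.82 to 0.34 for SCI-ES 1 day versus SCI, -0.19 to 0.78 for SCI-ES 7 days versus SCI, -0.11 to 0.37 for SCI-ES 3 days versus Sham-SCI, -0.60 to 0.12 for GA 7 days versus GA 1 day and -0.025 to 0.28 for Sham-GA 3 days versus Sham-GA 1 day. Array number limits precision: 3 animals per group cannot give an exact permutation p under 0.1.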

Other observations

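Nicotinic subunits known from neurons and other cells were measured for 11 of 11 listed genes and none passed the test in any comparison. Their median difference was 0.01 from Sham-SCI to SCI, -0.06 after 1 day of ES against SCI and 0.12 from 1 to 7 days of ES, where the muscle subunits had medians of 0.45, 0.91 and -2.08. Chrna4 lay at the ends of its list, at 0.79 from Sham-SCI to SCI and at -0.67, -0.65 and -0.75 in SCI-ES 1, 3 and 7 days against SCI. After 3 days of GA 11 of 11 were lower than in sham, by a median of -0.16 against -0.03 for all genes. All were read on the same arrays, and the list level overlapped between the groups. It stood at 0.22, -0.04 and 0.06 in Sham-GA 3 days and at -0.17, -0.11 and -0.01 in GA 3 days.

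Over the 33 arrays the muscle subunits were among the more variable genes. The SD of Chrna1 was 1.08, at the percentile 99.0 of all genes, and those of Chrnd, Chrne and Chrng lay at the percentiles 98.4, 98.1 and 97.2, while Chrnb1 with an SD of 0.54 lay at 89.6.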
